A study of Mus musculus with 38 samples.

Results

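The H3K9me3 islands of male and female mouse liver were compared as 1 male list of 10875 islands and 1 female list of 17626. These 28501 islands are all the H3K9me3 intervals among 384017 peaks and islands in 12 lists, 1 per sex for each of 6 histone marks. Islands of the 2 H3K9me3 lists were matched by coordinates, and 1 shared base made them partners. They were described by length, chromosome, reads and control reads.

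The study mapped histone marks by chromatin immunoprecipitation and sequencing in livers of 8-week-old male and female mice of the outbred CD-1 stock. No genotype or treatment is named for either sex. H3K9me3 had 2 male and 2 female libraries. The files of both libraries of a sex were identical, so each list is a pool with no spread between animals, and no test between the sexes was possible. The 95% intervals given with shares are exact (Clopper-Pearson) and reflect counting error alone. In bulk liver, a mark present in fewer cells and a weaker mark per cell cannot be told apart.

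Trimethylation of lysine 9 on histone H3 is written by enzymes such as SETDB1 and the SUV39H proteins and is bound by HP1 proteins. It marks compact chromatin over satellite repeats, over copies of endogenous retroviruses and over clusters of zinc finger genes, where it lies mainly over gene bodies. H3K27me3, the mark of Polycomb repression, lies over silent developmental genes, and H3K4me3 and H3K27ac mark active promoters and enhancers.

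Promoters of 5 genes whose start lay in an island are shown to let their sequence be compared. The sequences are the 250 bases before the RefSeq start in GRCm38.p6, read 5′ to 3′ on the gene's strand, with every CG in capitals, since CG is the site of DNA methylation in mammals. CG reads the same on both strands. Zscan18 encodes a zinc finger protein, Tdrd1 a tudor domain protein of the germline piRNA pathway and Clec4f a lectin of Kupffer cells, and these 3 starts lay in islands of both sexes. Rap1gap, which encodes a GTPase activating protein for Rap1, lay in a male island called male by the authors. Mill2, which encodes an MHC class I-like protein, lay in islands of both sexes, of which the female one was called female. The windows are chr7:12803639-12803888 on the minus strand for Zscan18, chr19:56830462-56830711 on the plus strand for Tdrd1, chr6:83656117-83656366 on the minus strand for Clec4f, chr4:137724211-137724460 on the plus strand for Rap1gap and chr7:18839716-18839965 on the plus strand for Mill2.
Zscan18: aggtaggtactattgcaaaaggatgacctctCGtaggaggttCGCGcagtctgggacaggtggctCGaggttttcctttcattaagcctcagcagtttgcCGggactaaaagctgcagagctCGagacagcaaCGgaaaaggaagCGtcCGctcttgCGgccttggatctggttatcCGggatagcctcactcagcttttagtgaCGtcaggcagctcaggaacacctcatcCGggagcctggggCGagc
Tdrd1: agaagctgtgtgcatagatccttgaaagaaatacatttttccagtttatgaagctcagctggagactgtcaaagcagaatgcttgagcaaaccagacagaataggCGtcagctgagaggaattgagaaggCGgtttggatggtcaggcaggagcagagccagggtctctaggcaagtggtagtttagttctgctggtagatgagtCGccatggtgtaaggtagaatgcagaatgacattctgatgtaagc
Clec4f: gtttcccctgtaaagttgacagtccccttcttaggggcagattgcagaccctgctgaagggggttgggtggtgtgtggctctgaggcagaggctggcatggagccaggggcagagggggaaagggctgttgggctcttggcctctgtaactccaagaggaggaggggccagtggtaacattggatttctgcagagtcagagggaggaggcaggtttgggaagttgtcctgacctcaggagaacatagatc
Rap1gap: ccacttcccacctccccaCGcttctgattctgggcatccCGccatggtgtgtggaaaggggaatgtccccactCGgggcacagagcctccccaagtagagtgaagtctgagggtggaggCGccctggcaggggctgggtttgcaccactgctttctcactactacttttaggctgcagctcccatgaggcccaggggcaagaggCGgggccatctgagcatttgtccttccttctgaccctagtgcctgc
Mill2: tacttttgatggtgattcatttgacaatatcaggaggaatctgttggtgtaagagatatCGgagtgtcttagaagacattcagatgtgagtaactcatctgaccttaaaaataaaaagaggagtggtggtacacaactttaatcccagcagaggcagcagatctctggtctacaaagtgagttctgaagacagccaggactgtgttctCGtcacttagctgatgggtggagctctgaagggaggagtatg
The 5 windows held 14, 3, 0, 5 and 2 copies of CG in this order. Of 31396 autosomal promoter windows of this length, 92.4% held at least 1 CG, with a median of 6.

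The male list covered 176 Mb, 7.13% of the autosomes, and the female list 223 Mb, 9.02%. Male islands were longer, with a median of 14400 bp and quartiles of 10400 and 19200 bp, against 10800 bp and quartiles of 7600 and 15200 bp in females. Female islands were more densely read, with 2490730 reads in all or 11.2 per kb, against 1526754 reads or 8.66 per kb in males. The control reads were similar per kb, at 8.97 in male and 8.59 in female islands. The deposited fold over control had nearly the same median in both lists, 1.99 and 2.07. Each deposited fold equals reads over control reads times 1 constant, 2.06 in males and 1.61 in females. With a shared control, these constants put the female libraries at 1.28 times the male reads in total. The female list therefore differed from the male in depth as well as in sex, and the part of depth in the list lengths was not tested.

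Both lists held many islands with no partner in the other sex. Of the male islands, 4240 (38.99%, 38.1 to 39.9%) overlapped no female island, and of the female islands 10624 (60.3%, 59.5 to 61.0%) overlapped no male island. H3K27me3, called with the same window and gap, had 19.5% of male and 21.2% of female islands without a partner. The bases in islands of both sexes came to 75.7 Mb, 42.9% of the male and 33.96% of the female H3K9me3 bases. For H3K27me3 the shared bases were 73.3% of the male and 71.5% of the female bases. The 2 marks are unlike here, since H3K27me3 islands covered 22.9 and 23.4% of the autosomes, with a median length of 21600 bp. They held a median of 556.5 male and 580 female reads, against 111 and 113 in H3K9me3 islands. Wider and more deeply read islands meet a partner more easily, and this part of the contrast was not tested. Partnered islands held 65.8% of the male and 51.3% of the female H3K9me3 reads. In the full lists 6635 male and 7002 female islands had a partner, so the 2 shares without one differ mainly with list length. With the female list shortened to its 10875 best-scoring islands, the shares without a partner were 51.7% in males and 50.6% in females. Lists of equal length whose islands mostly pair 1 to 1 must give nearly equal shares, so this cut cannot compare the sexes.

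Long islands were found in both sexes and short ones often in 1 only. Of the islands over 50 kb, 2 of 101 in the male and 4 of 97 in the female list lacked a partner (1.98% and 4.12%). Between 20 and 50 kb the shares were 29.1% in males and 34.9% in females. Between 5 and 10 kb they were 42.9% and 69.7%, so the lists differed most among short islands. A longer island has more bases with which to meet a partner, and this part of the trend was not tested.

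**Figure D1:**
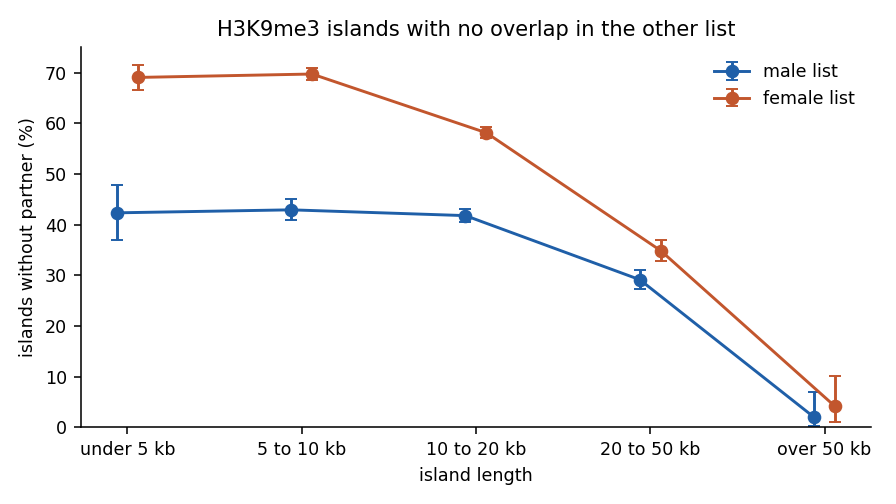
Percentage of H3K9me3 islands that share no base with an island of the other sex (vertical axis), by island length (horizontal axis, 5 classes), for the male (blue) and female (orange) list, with exact 95% intervals. The female share lies above the male in the 4 classes up to 50 kb, and both fall to 1.98% and 4.12% over 50 kb.

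Merging overlapping islands gave 20961 regions, of which 6097 held islands of both sexes. In 5062 of these, 1 male island met 1 female island. In 580, 1 male island met several female islands, and in 257, 1 female island met several male islands. Enrichment of a region was taken as its share of the list's reads over its share of the list's control reads. The log2 ratio of male over female enrichment had a median of -0.02, with quartiles of -0.24 and 0.20. The median counting error of 1 such ratio (SE) was 0.26, and the SD of the ratios over regions was 0.40. The SE treats the control reads of the 2 lists as independent, which overstates it where the control is shared. At least 2-fold higher enrichment was found in 58 regions in males (0.951%) and in 109 in females (1.79%). The authors' deposited table also lists a log2 of male over female signal per island. Its mean was above 0 in both lists for 34 of the 58 regions, and below 0 in both lists for 43 of the 109.

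These 2-fold differences went with island width. Of the 58 regions higher in males, 55 had fewer island bases in the male list. All 109 regions higher in females had fewer island bases in the female list. Over the 6097 regions, the Spearman correlation between the width ratio and the enrichment ratio was -0.46, a description in which both measures come from the same islands. Among the 998 regions whose male and female widths lay within 10% of each other, 0 were at least 2-fold higher in males and 1 in females, with an SD of 0.28.

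**Figure D2:**
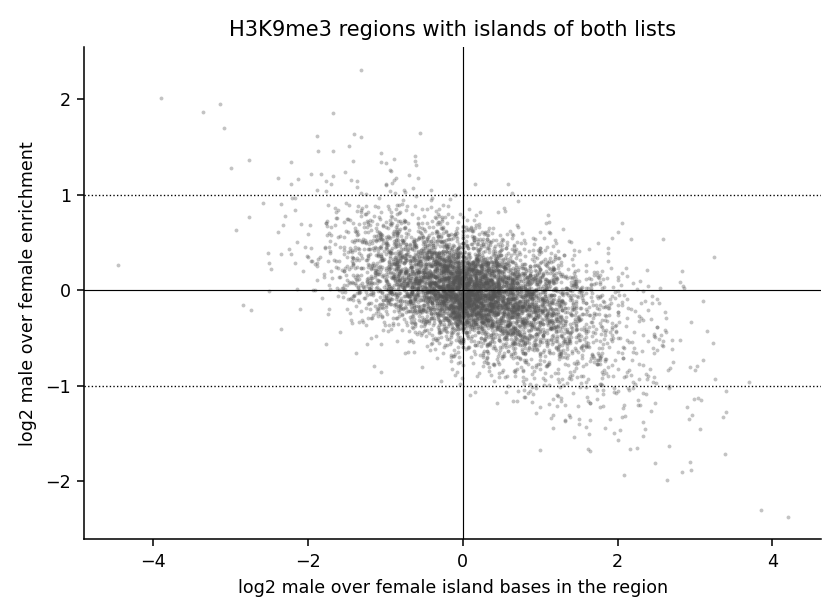
Log2 of male over female enrichment (vertical axis) against log2 of male over female island bases (horizontal axis) for the 6097 H3K9me3 regions with islands of both lists, 1 point per region. Dotted lines mark 2-fold, and the points past 2-fold lie almost all where the sex with the higher enrichment has the narrower island.

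Where the called coordinates were the same, the sexes were close. The lists shared 63 islands of equal start and end, with equal control reads in 63 of 63. Equal coordinates need the same windows to pass in both sexes, so these few islands are selected for like signal and do not stand for the lists. Their reads ran from 54 to 392 in males (median 103) and from 52 to 620 in females (median 141). The log2 enrichment ratio had a median of -0.07 and ran from -0.79 to 0.76, with 28 above 0, and 0 of 63 reached 2-fold. The log2 ratio in the authors' deposited table exceeded the log2 of male over female reads by 0.39 in the median island (0.34 to 0.46, SD 0.02). This offset is close to the 0.35 that the constants of the deposited folds imply for the library totals.

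The authors' deposited table lists for each island the male over female signal on the log2 scale and a call, which needs a log2 beyond 1 in size and a p below 0.001. By the authors' deposited table, 372 islands of the male list were called male (3.42%) and 3 female (0.0276%). In the female list, 394 were called female (2.24%) and 11 male (0.0624%) in the authors' deposited table. Islands without a partner held 345 of the 372 male calls and 380 of the 394 female calls in the authors' deposited table. Most unpartnered islands still had no call there: 3895 of 4240 in the male and 10244 of 10624 in the female list of the authors' deposited table. The authors' deposited table puts the median log2 of the male list at 0.55 for unpartnered and 0.11 for partnered islands, and that of the female list at -0.40 and -0.13. An unpartnered island was called as an island in 1 sex alone, so a lean of its ratio to that sex is built into the selection. The same holds for the gathering of calls in unpartnered islands, and neither is evidence of a sex difference.

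**Figure D3:**
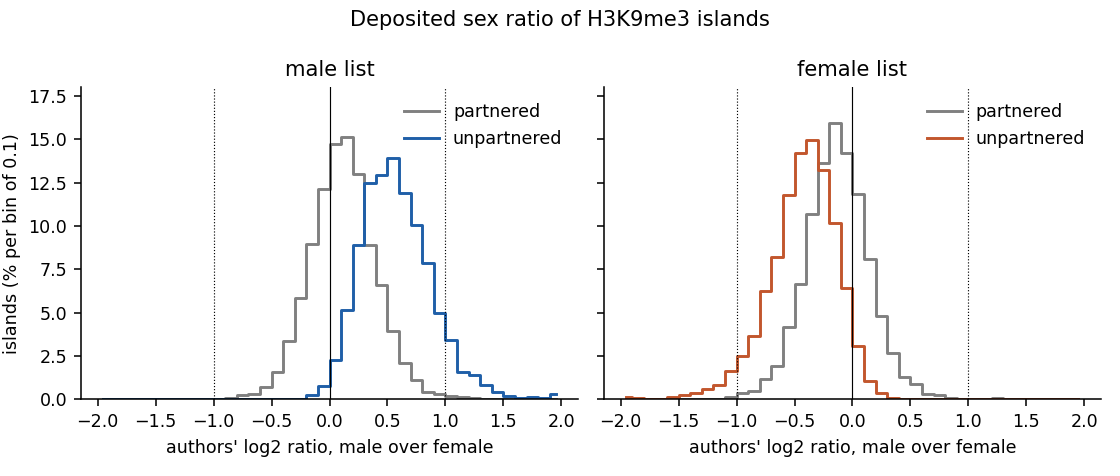
Distribution of the log2 male over female ratio in the authors' deposited table (horizontal axis, values beyond 2 drawn in the outermost bin) as the percentage of islands per bin of 0.1 (vertical axis), for partnered (grey) and unpartnered (coloured) islands of each list. Dotted lines mark the 2-fold limit of the calls, and the unpartnered medians of 0.55 and -0.40 lie inside it. The lean of each unpartnered set to its own sex is built into the selection.

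The surplus of female islands was uneven among chromosomes. Females had more islands on 17 of 19 autosomes, and males on chromosome 18 (270 against 206) and chromosome 19 (206 against 143). Female over male covered bases ran from 0.482 on chromosome 19, 0.546 on chromosome 18 and 0.878 on chromosome 11 to 1.81 on chromosome 1. On chromosome 19, 66.5% of male and 48.95% of female islands lacked a partner. On chromosome 1 the order was the opposite, with 33.9% of male and 67.6% of female islands. Chromosome 8 had the highest cover of any autosome in both lists, 10.7% in males and 11.9% in females. Over the 19 autosomes, GC content from the IgG reads and the female over male bases had a Spearman correlation of -0.56, as a description. Chromosomes 18 and 19 differed from others of like GC content. Chromosome 18, at 39.1% GC, had a ratio of 0.546, and chromosome 13, at 39.3%, had 1.47. Chromosome 19, at 40.7%, had 0.482, and chromosome 7, at 41.0%, had 1.20.

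**Figure D4:**
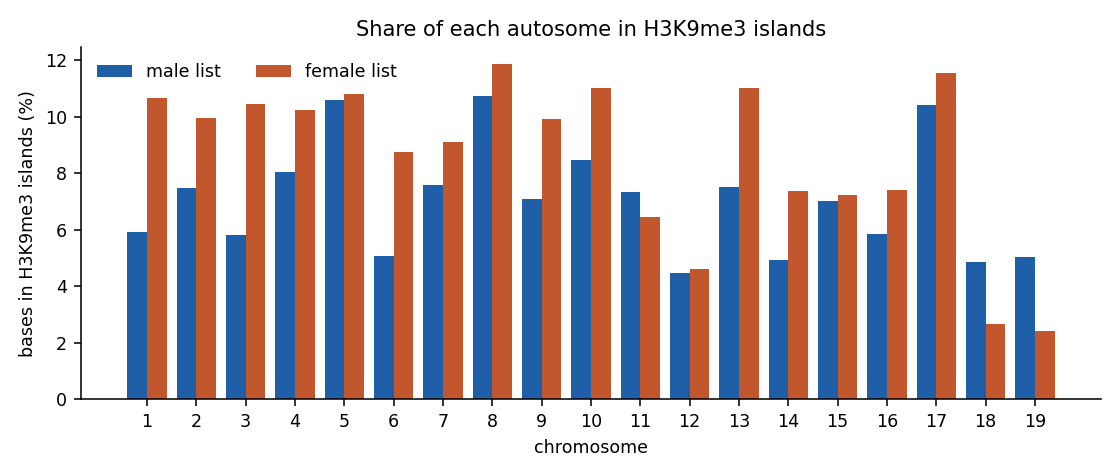
Percentage of each of the 19 autosomes (horizontal axis) covered by H3K9me3 islands (vertical axis) in the male (blue) and female (orange) list, 1 pooled list per sex. The female bar is the higher on 16 autosomes, and the male bar on chromosomes 11, 18 and 19.

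The lists also differed by base composition. The 100 kb bins of the autosomes were divided by GC content into 5 classes of equal size. In the lowest class (29.7 to 35.5% GC), male islands covered 2.11% of the bases and female islands 6.82%, 3.24 times as much. In the highest class (43.99 to 55.8%), male islands covered 15.8% and female islands 10.8%, a ratio of 0.686. For H3K27me3 the female over male ratio went the other way, from 0.606 in the lowest to 1.11 in the highest class. In the lowest class, 84.6% of female H3K9me3 islands and 45.5% of male islands had no partner. In the highest class the values were 38.3% and 45.8%, so the female list had the lower share there. The median island GC was 44.3% in unpartnered male, 39.7% in unpartnered female and 42.98 and 42.9% in partnered male and female islands. Male-called islands without a partner stood highest, at 48.8%, and female-called ones were at 39.7%. The autosomal mean of the IgG reads was 39.3%. Whether base composition acted on the libraries or on the mark was not tested.

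**Figure D5:**
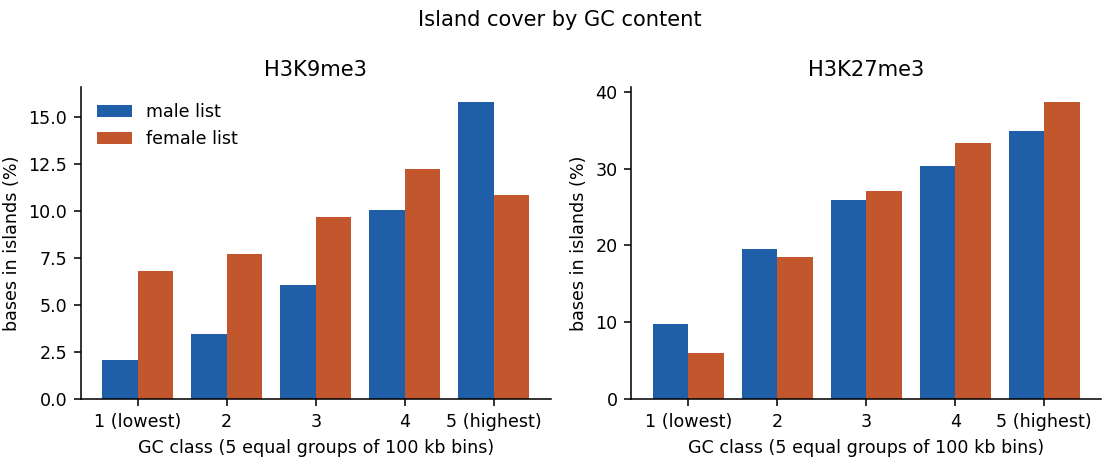
Percentage of bases in islands (vertical axis) in 5 classes of 100 kb bins ordered by GC content of the IgG reads (horizontal axis), for H3K9me3 (left) and H3K27me3 (right), male list in blue and female in orange. Female H3K9me3 cover exceeds male in classes 1 to 4, and male exceeds female in class 5, at 15.8 against 10.8%.

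Many H3K9me3 islands also overlapped the Polycomb mark of the same sex. H3K27me3 islands, which cover 22.9% of the autosomes in males and 23.4% in females, held 49.7% of male and 43.2% of female H3K9me3 bases. By island, 60.6% of the male and 49.9% of the female list overlapped H3K27me3. Partnered islands were alike in this (61.1 and 63.2%), and so were unpartnered male islands (59.8%), while unpartnered female islands stood lower at 41.2%. Of the unpartnered female islands, 51.5% met none of the 5 other marks, against 25.7% of the unpartnered male islands. Active marks covered less of the islands than of the autosomes. H3K27ac peaks met 5.90% of male and 1.89% of female islands, and held 0.599 and 0.208% of their bases against 5.04 and 4.45% of the autosomes. H3K4me1 peaks, a mark of enhancers, met 14.0 and 6.72% of islands, and held 1.36 and 0.704% of their bases against 5.87 and 6.91% of the autosomes. H3K4me3 peaks met 5.46 and 4.82% of islands, and held 0.538 and 0.468% of their bases against 1.32% of the autosomes in either sex.

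Some called islands lay over sites called for the other sex in an active mark, and a few over sites called for the same sex. Of the 345 unpartnered male-called islands, 29 overlapped an H3K4me1 peak called female (8.41%, 5.70 to 11.8%) and 2 overlapped one called male, all by the authors' deposited table. In the whole male list 1.89% of islands overlapped a female-called and 0.883% a male-called H3K4me1 peak of the authors' deposited table. The whole list is an unlike base, since 19.6% of unpartnered male islands met a male H3K4me1 peak of any call, against 14.0% of all male islands. Of the 380 unpartnered female-called islands, 12 overlapped a male-called H3K4me1 peak (3.16%, 1.64 to 5.45%) and 7 a male-called H3K27ac peak (1.84%) in the authors' deposited table. The female list as a whole gave 0.891 and 0.21% for the same overlaps with the authors' deposited table. Female-called peaks of H3K27ac and H3K4me3 in the authors' deposited table met 2 of the 380 each (0.526%). The female list gave 0.0964 and 0.102% for these. Female-called H3K4me1 peaks met 1 of the 380 (0.263%), against 0.443% of the list. Male H3K27me3 calls met 10 of the 345 male-called islands (2.90%) against 0.313% of the male list in the authors' deposited table.

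Starts of 11883 genes could be placed on the build of the islands. Male islands held 844 of these starts (7.10%) and female islands 720 (6.06%), with 285 in both. These shares stand beside the 7.13% and 9.02% of the autosomes that the islands covered, so the male share was near the background and the female share below it. Starts in both lists were poor in active marks: of 297 start windows, 4.04% lay in H3K4me3 peaks of either sex, against 41.9% in males and 41.3% in females for all placed windows. H3K27me3 covered 54.9% of these 297 windows in males and 63.6% in females, against 25.9 and 27.6% of all placed windows. The H3K27me3 shares were of like size for windows in male islands only (61.1 and 65.8%) and in female islands only (55.9 and 64.7%). Windows in male islands only were richer in bases G and C (median 51.6%) than those in female islands only (45.2%). Protein-coding genes made up 38.5% of the symbols in both lists, 50.9% of the male-only and 46.4% of the female-only symbols, and 64.6% of all placed symbols.

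The tissue was checked at hepatocyte markers. All 5 placed starts among them lay in H3K4me3 and H3K27ac peaks of both sexes and 0 in H3K9me3. In the wider list of hepatocyte genes, 0 of 17 starts lay in H3K9me3 islands of either sex, which allows up to 19.5%. Among liver genes known to be more active in males, 0 of 13 placed starts lay in H3K9me3 islands of either sex, and among those more active in females likewise 0 of 13 (up to 24.7%). H3K27me3 covered 7 of these 13 female-biased genes in males and 0 in females, where 25.9 and 27.6% of all placed start windows lay in it. The 7 placed Mup genes, which encode major urinary proteins, had 0 starts in H3K9me3 (up to 41.0%). Of other cell types, the start of Clec4f was 1 of 2 placed Kupffer cell or macrophage markers in H3K9me3. Its islands held 110 reads on 90 control reads in males and 79 on 56 in females. The single placed marker each of endothelial, lymphoid, bile duct and stellate cells lay outside H3K9me3.

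Zinc finger genes were more often the nearest placed start of partnered islands than of steps along the autosomes. No distance limit was set. The median distance to the nearest placed start of any gene was 81.0 kb for partnered male and 81.8 kb for partnered female islands. The nearest placed start was a zinc finger gene for 160 of 6519 partnered male islands (2.45%, 2.09 to 2.86%) and 151 of 6881 partnered female islands (2.19%, 1.86 to 2.57%). Steps of 10 kb along the autosomes gave 1.01%, and H3K27me3 islands 0.585% in males and 0.627% in females. For unpartnered islands the shares were 0.734% in males and 0.939% in females. The gene starts themselves were in the mark about as often as other genes: 10 of 167 lay in male islands (5.99%, 2.91 to 10.7%) and 13 in female islands (7.78%, 4.21 to 12.9%), against 7.10 and 6.06% of all placed genes. Male H3K4me3 peaks held 146 of the 167 starts. The authors' ratios of islands whose nearest placed start was a zinc finger gene lay further to the female side than in the lists as a whole. Of the 160 partnered male islands nearest a zinc finger gene, 104 had a log2 below 0 in the authors' deposited table (65.0%, median -0.18), against 33.6% and a median of 0.11 for all partnered male islands. Of the 151 partnered female islands, 120 were below 0 in the authors' deposited table (79.5%, median -0.31), against 69.8% and -0.13. Bins of the lowest 2 GC classes held 29.4% of the 160 male islands and 17.3% of all partnered male islands, and the part of GC content was not tested.

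Some zinc finger genes of chromosomes 4 and 7 give reads behind these values, and all those printed lean female. Among zinc finger starts in islands, 8 of 10 in male and 12 of 13 in female islands had a log2 below 0 in the authors' deposited table. Zfp663 on chromosome 2 went the other way, in a male island with 264 reads on 168 control reads. The authors' deposited table lists a log2 of 0.08 for it. Around the start of Zfp982 the male island spanned 26800 bp with 387 reads on 441 control reads, and the female island 103200 bp with 2624 on 1551. The authors' deposited table lists -0.62 and -0.60 for them on the log2 scale. Zfp984 lay in an island of equal coordinates in both lists, chr4:147182400-147207599, with 270 male and 517 female reads on 336 control reads each. The authors' deposited table lists -0.54 for it. Between Zfp982 and Zfp984 lay a female island with no male partner, chr4:146968000-146996399, with 809 reads on 508 control reads. The authors' deposited table lists a log2 of -2.03 and a female call for this island, which was chosen after its value was seen. In RefSeq order Zfp985, Zfp979 and Zfp534 also lie between Zfp982 and Zfp984. On chromosome 7 the island of Zfp977 had 287 reads on 172 control reads over 32000 bp in males and 1197 on 536 over 78000 bp in females. Its deposited folds were close, 3.44 and 3.603, and the authors' deposited table lists -0.19 and -0.30 on the log2 scale. Zscan18, whose promoter is printed above, lay in 29600 bp of male and 72400 bp of female island, with 373 reads on 288 control reads and 1276 on 665. The authors' deposited table lists -0.38 and -0.49 for these islands.

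Chemosensory receptor starts were counted in both lists. Female islands held 39 of 543 placed olfactory receptor starts (7.18%, 5.16 to 9.69%) and male islands 16 (2.95%, 1.69 to 4.74%). For vomeronasal receptors, which detect pheromones, the counts were 11 (9.02%, 4.59 to 15.6%) and 4 (3.28%, 0.900 to 8.18%) of 122. All placed genes gave 6.06% in female and 7.10% in male islands. These values lie inside the female interval of both families and inside the male interval for vomeronasal receptors, and above the male interval for olfactory receptors. The nearest start was an olfactory receptor for 2.31% of unpartnered female and 0.710% of unpartnered male islands, against 1.46% of 10 kb steps. These loci are poor in GC: 84.8% of the 243 unpartnered female islands nearest an olfactory receptor lay in the lowest 2 GC classes, against 44.6% of all unpartnered female islands. The part of GC content in these counts was not tested.

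Other fixed gene groups had at most 27 placed members, so their shares in islands have wide intervals. Female islands held 33.3% of Hox (4.33 to 77.7%), 22.2% of imprinted (2.81 to 60.01%) and 66.7% of germline starts (9.43 to 99.2%). For all placed genes the share was 6.06%, and only the germline interval lay above it. Male islands held 0% (up to 45.9%), 0% (up to 33.6%) and 33.3% (0.84 to 90.6%), against 7.10%. Histone genes gave 3.70% in either list. Of 6 placed Hox starts, which Polycomb holds silent in liver, Hoxd4 and Hoxa7 lay in female islands with folds of 1.83 and 1.68, and 6 of 6 lay in H3K27me3 of either sex. Of 9 placed imprinted genes, Igf2, a fetal growth factor, and Slc38a4, an amino acid transporter, lay in female islands. The Igf2 island had 138 reads on 58 control reads and the authors' deposited table lists a log2 of -0.05. The Slc38a4 island had 132 reads on 109 control reads, and the authors' deposited table lists a log2 of -0.69. Of 27 placed histone genes, H3f4 lay in islands of both sexes. Of 3 placed germline genes, Tdrd1 lay in islands of both sexes (367 reads on 402 control reads over 43600 bp in males, 144 on 129 over 15200 bp in females), and Sohlh2, a germ cell transcription factor, in a female island alone. The authors' deposited table calls each of these named islands sex-independent.

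Placed starts in sex-called islands were counted, and the genes named next were chosen after their values were seen. Male-called islands of the authors' deposited table held the starts of 25 genes, of which 19 code for proteins (exact interval 54.9 to 90.6%). All male islands held 844 starts, and 3.42% of male islands were called male in the authors' deposited table. Female-called islands of the authors' deposited table held 8 starts, of which 1 codes for a protein (12.5%, 0.316 to 52.7%), Mill2. All female islands held 720 starts, and 2.24% of female islands were called female in the authors' deposited table. Neither count of starts in called islands is above what these shares of called islands would give. The share of protein-coding symbols was 64.6% over all placed starts, 50.9% over those in male islands only and 46.4% over those in female islands only, and the difference between the called groups was not tested. The male ones were Actrt2, Clec11a, Coro6, Ctsa, Dnph1, Gltp, Mrln, Mybpc2, Ncln, Ncmap, Neurl2, Nyap1, Pold1, Rap1gap, Slc39a5, Sppl2b, Tnnc2, Trpc2 and Vars2. The start of Mrln, which encodes the micropeptide myoregulin, lay in an island of 88000 bp with 1119 reads on 876 control reads and the authors' deposited table lists a log2 of 1.05. Mybpc2, a myosin binding protein, shared an island of 28000 bp with Pold1, a DNA polymerase subunit, with 293 reads on 180 control reads and the authors' deposited table lists a log2 of 1.30. The island of Tnnc2, a troponin C, had 92 reads on 84 control reads and the authors' deposited table lists a log2 of 1.06. Rap1gap lay in an island of 30800 bp with 239 reads on 244 control reads and the authors' deposited table lists a log2 of 1.22. Slc39a5, a zinc transporter, had 105 reads on 107 control reads and the authors' deposited table lists a log2 of 1.04. Mill2 lay in a male island with 155 reads on 155 control reads and a female island with 172 on 55, with a log2 of -0.27 and -1.04 in the authors' deposited table.

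Ranked by the lower of its male and female enrichment, the first region in both lists was chr15:75999600-76025199. It had 703 male reads on 177 control reads and 829 female reads on 104. Its enrichment was 4.11 in males and 6.13 in females, its GC content was 63.2%, and the authors' deposited table gave it a log2 of 0.05 in either list. The longest male island, chr8:49281200-49537199, had 3289 reads on 2336 control reads over 256000 bp and met 6 female islands. The second, chr16:89802400-90056799, spanned the start of Tiam1, a Rac exchange factor, with 3818 reads on 1974 control reads. It met the longest female island, chr16:89859600-90056799, which had 3782 reads on 1474. These long regions were near equal in the 2 lists, with log2 enrichment ratios of -0.21 (SE 0.05) and 0.15 (SE 0.06).

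Among regions in both lists with at least 100 reads per sex, the highest ratio lay at chr4:118214400-118221199 over the start of Tmem125. There the male island held 123 reads on 57 control reads in 800 bp and the female island 121 on 135 in 6800 bp, a log2 ratio of 1.70 (SE 0.29). At chr5:80237600-80244799, with the nearest placed starts 2401 kb (Igfbp7) and 1206 kb (Adgrl3) away, 237 male reads on 140 control reads met 121 female reads on 115. The ratio was 1.12 (SE 0.24), and the authors' deposited table gave log2 values of 1.21 and 1.23, a male call in either list. The lowest ratio, at chr5:137232000-137254399, was -1.66 (SE 0.36), from 119 male reads on 134 control reads in 17200 bp and 106 female reads on 28 in 5600 bp. The authors' deposited table gave log2 values of opposite sign there, 0.85 for the male and -1.36 for the female island. The region at chr6:123825200-123846799, with the nearest placed starts 96.2 kb (Vmn2r24) and 335 kb (Vmn2r27) away, had a ratio of -1.30 (SE 0.26).

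The unpartnered male islands with the best scores included several with dense control reads. At chr11:3019600-3100399, 11787 reads lay on 17238 control reads (213 per kb), and at chr11:3000000-3008799, 1969 on 2641 (300 per kb). The authors' deposited table lists log2 values of 0.71 and 0.72 for these islands and calls both sex-independent. At chr2:27351200-27360799, 9.87 kb from the start of Wdr5, a subunit of H3K4 methyltransferase complexes, 860 reads lay on 470 control reads, and the authors' deposited table lists a log2 of 3.46. Its control density of 48.96 reads per kb compares with a median of 8.33 in the male list. At chr18:85876400-85886399, 736 reads lay on 710 control reads (71.0 per kb), and the authors' deposited table lists a log2 of 4.19, the highest of all male islands. At chr2:169692800-169721599, with Zfp217 in RefSeq order between the nearest placed starts, the control was ordinary at 8.44 per kb, with 389 reads on 243 and the authors' deposited table lists a log2 of 1.39. A short male island at chr12:110696800-110702399, 5.77 kb from the start of the imprinted gene Dlk1, had 58 reads on 33 control reads and the authors' deposited table lists a log2 of 2.37. That last island was chosen after its value was seen.

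Most of the 5 best-scoring unpartnered female islands lay where the control was sparse. At chr12:89327600-89337999, 254 reads lay on 10 control reads, 0.962 per kb, and the authors' deposited table lists a log2 of -1.47. On chromosome 5, 6 female-called islands lay within chr5:105072800-105330799, between the starts of Zfp33b, 72.1 kb away, and Abcg3, an ABC transporter, 80.9 kb away. They held 1310 reads on 173 control reads, 1.83 per kb against a list median of 8.46, with log2 values from -1.57 to -1.14 in the authors' deposited table. At chr3:35576400-35579999 the control was ordinary: 281 reads lay on 32 control reads (8.89 per kb), and the authors' deposited table lists a log2 of -2.91, the lowest of all female islands. That island also overlapped female islands or peaks of H3K27me3, H3K4me1 and H3K4me3. Another cluster, of 3 female-called islands, lay at chr7:132210000-132508799, with Hs3st4 in RefSeq order between the nearest placed starts, and with 224 reads on 95 control reads.

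Male calls of the authors' deposited table formed 4 clusters of 3 or more islands less than 200 kb apart. The largest, chr5:122345600-122689599, held 6 islands with 1220 reads on 1106 control reads and log2 values from 1.06 to 1.92 in the authors' deposited table. RefSeq order places Cux2, a homeobox factor more active in female liver, and Myl2, a cardiac myosin light chain, between its flanking starts. Ccdc63, Ppp1cc, Gm52787, Hvcn1 and Tctn1 also lie between them, and the only placed start inside the cluster was that of Gm52786. A second cluster at chr5:115118800-115249599 held 3 islands with 370 reads on 392 control reads and spanned the start of Gltp, a glycolipid transfer protein, which lay in a called island. The others were at chr12:113268800-113439199 (367 reads on 306 control reads, with Aspg and Kif26a between the flanking starts) and chr15:100964000-101204799 (213 on 173).

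A few islands with very many control reads weighed on the male list. Islands with at least 50 control reads per kb numbered 26 in males, with 4.06% of the reads and 6.10% of the control reads, and 18 in females, with 0.647 and 0.708%. The 5600 bp at chr2:98502000-98507599 alone held 14560 male reads on 26726 control reads, a deposited fold of 1.12, with no female island. Of the 26 male islands 12 had no partner, and of the 18 female islands 1. At chr17:39972800-39987999, dense in control reads in both lists, 5644 male reads lay on 4022 control reads and 7747 female reads on 4063, in a female island of 21600 bp, with a log2 enrichment ratio of -0.01 (SE 0.04). Without these islands, 39.01% of male and 60.3% of female islands lacked a partner, an alternative chosen after seeing the data.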

How the data were processed

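H3K9me3 was measured by ChIP-seq in CD-1 mouse liver, with 2 libraries per sex. Reads were mapped with Bowtie to mm9 and islands called with SICER 1.1, per the submitters' processing notes, in windows of 400 bp with gaps of 2400 bp, per the labels. The authors deposited raw counts of reads and control reads per island, a p-value, a fold ratio over control and a log2 sex ratio with a call, per the file headers. The scaling of the sex ratio was not stated. The 2 files of each sex were identical, so each list was used once, and no p-values were computed. Whether the libraries came from separate animals is not stated.

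Islands sharing 1 bp were partners, and overlapping islands were merged into regions. Enrichment was reads over control reads, each divided by its list total, and 2-fold was the limit for a call. All islands lay on the 19 autosomes. GC content came from the 35-base reads of 1 male IgG library of an earlier record, counted once per position and strand. Gene starts came from RefSeq (GRCm38.p6) promoter windows with an exact IgG read match at 1 place in mm9, 12832 of 31396 windows on 18 autosomes. Of these, 99.7% had the same distance between builds as a neighbour. Starts on chromosome 18 were not analysed here. Starts without a read match could not be placed, so counts of starts cover 11883 of 25748 symbols.

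Named regions were the 5 best-scoring unpartnered islands per sex, the 8 highest and 8 lowest ratios among regions with at least 100 reads per sex, the 5 strongest regions in both and the 5 longest islands, of which a selection is printed. Genes came from lists by symbol. Members and lists were chosen with earlier results of these data known. Python 3.11.15, numpy 2.4.6, pandas 2.3.3 and scipy 1.17.1 were used, and the overlap and enrichment steps were tested on simulated data.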

Additional observations from a re-analysis of the deposited data

How the results depend on the processing

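Without a partner were 67.2% of male and 79.8% of female islands when 50% of both lengths had to overlap, 37.8 and 59.3% when a partner within 2400 bp counted, 44.1 and 67.4% among islands with a deposited fold of at least 2, and 51.7 and 50.6% with the female list shortened to the length of the male. The female share was the higher in all of these except the last, where the equal list lengths bind the 2 shares together. Regions past 2-fold numbered 45 to 60 in males and 78 to 148 in females under the planned scalings and the minimum of 20 control reads, against 58 and 109. Among regions with widths within 10% of each other, chosen after seeing the data, they were 0 and 1. The median log2 ratio ran from -0.10 with the deposited folds to 0.01 with totals over shared regions, so its sign is not fixed, and it was -0.02 whichever chromosome was left out. No paired analysis was possible because both libraries of a sex have the same pooled file, and for the same reason no replicate could be left out. At a median of 111 male and 113 female reads per island, ratios of single islands are limited by counting error.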
